A study of Mus musculus with 3 samples.

Results

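A set of 9 genes of tumor necrosis factor (TNF) signaling and of the feedback on NF-κB was followed through the immune cells of naive and transplanted mouse lungs. The genes were Tnf, Nfkbia, Nfkbiz, Nfkbid, Nfkbie, Tnfaip3, Tnfaip2, Nfkb1 and Rel, chosen by name from the 32285 genes listed in the files, and all 9 had unique molecular identifiers (UMIs) in every library. The single-cell RNA-Seq data comprise 3 libraries of C57BL/6J left lungs, each from the pooled cells of 2 mice. The naive library came from left lungs of mice without a transplant. The other libraries came from left lungs of CD45.2 B6 donors after transplantation into CD45.1 B6 recipients, harvested 2 hours (2 h) or 3 days after reperfusion. Those grafts had passed 60 minutes of cold and 45 minutes of warm ischemia. Cells were stained for CD45.1 and CD45.2, and recipient CD45.1 cells were sorted from the grafts. A cluster that entered no lineage still held 36 cells at 2 h and 170 at 3 days that led with lung genes such as Sftpc and Cdh5, and its endothelial and epithelial markers summed to 4467 and 7407 counts per 1e+06 UMIs at 3 days. The fraction sorted from the naive lungs is not stated by the labels or methods.

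TNF is a cytokine released early in inflammation, mainly by myeloid cells, and it signals through a pair of receptors to the kinases that free NF-κB from its inhibitors. NF-κB then enters the nucleus and switches on inflammatory genes together with genes that end the response. Nfkbia encodes IκBα, which pulls NF-κB back out of the nucleus, and Nfkbie encodes the related inhibitor IκBε. Tnfaip3 encodes A20, an enzyme that edits ubiquitin chains on signaling proteins upstream of NF-κB. Nfkbiz and Nfkbid encode nuclear IκB proteins that tune which targets are transcribed. Nfkb1 and Rel encode the NF-κB subunits p105/p50 and c-Rel, and Tnfaip2 was named as a TNF-induced gene.

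The bases before the transcription start of the feedback genes are shown because Nfkbia and Tnfaip3 were the members at least 2-fold higher in neutrophils at 2 h than in naive lungs, as were 8.82% of the genes tested there, and Tnf is the ligand. RefSeq promoter windows on GRCm38.p6 were available for 7 of the 9 members. Nfkbiz and Nfkb1 had none. Each sequence below is the 250 bases before the start, 5′ to 3′ on the strand of the gene, with matches to the NF-κB consensus, a motif of 10 bases, in capitals.
Nfkbia, chr12:55492648-55492897, minus strand: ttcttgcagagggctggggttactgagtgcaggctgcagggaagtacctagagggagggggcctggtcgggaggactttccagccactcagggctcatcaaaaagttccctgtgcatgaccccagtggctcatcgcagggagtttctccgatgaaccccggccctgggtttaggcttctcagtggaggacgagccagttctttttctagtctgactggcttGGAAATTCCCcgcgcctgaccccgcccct
Tnfaip3, chr10:19015411-19015660, minus strand: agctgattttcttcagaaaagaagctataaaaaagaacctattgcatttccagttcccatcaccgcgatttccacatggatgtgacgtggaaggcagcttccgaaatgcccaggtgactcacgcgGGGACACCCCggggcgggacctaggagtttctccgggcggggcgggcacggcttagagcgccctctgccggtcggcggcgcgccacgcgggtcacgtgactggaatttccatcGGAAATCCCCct
Tnf, chr17:35202008-35202257, minus strand: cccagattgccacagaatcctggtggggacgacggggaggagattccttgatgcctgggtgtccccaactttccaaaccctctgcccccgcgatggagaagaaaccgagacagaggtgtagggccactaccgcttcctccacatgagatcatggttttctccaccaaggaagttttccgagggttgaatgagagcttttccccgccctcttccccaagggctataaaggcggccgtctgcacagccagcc
Nfkbia held 1 match, 29 to 20 bases before the start. Tnfaip3 held 2 at its first start, 125 to 116 and 12 to 3 bases before it, and its other start held 0. Rel held 3 overlapping matches, 92 to 82 bases before its start. Nfkbid held 2 at 1 of its 3 starts, and Nfkbie held 1. The windows of Tnf and Tnfaip2 held no match to these letters. Counted on both strands, 3.9% of the 32851 windows of the table held the consensus. A match is a description of the sequence and not evidence of binding.

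The filters of the study's methods kept 2422 naive cells, 10283 cells at 2 h and 8324 at 3 days. Depth was uneven. Kept cells had a median of 7298.5 UMIs in the naive library, 878 at 2 h and 5716.5 at 3 days. The pairs of libraries shared 1 to 23 cell barcodes. Clusters of all cells, made without the 9 members and 40 other pathway genes, were assigned by marker genes to 6 lineages, which held 2282 naive cells, 10101 cells at 2 h and 7588 at 3 days. The lineages held neutrophils (389, 4372 and 2411 cells in naive, 2-hour and 3-day libraries), monocytes (144, 521 and 1255), macrophages (102, 6 and 640), NK cells (516, 1020 and 331), T cells (577, 2532 and 1049) and B cells (554, 1650 and 1902). The clusters were named from these marker lists, so the marker levels describe the lineages and are no separate check of the names. In neutrophils the 12 neutrophil markers summed to 55532 to 145432 CPM over the libraries, in B cells the 9 B cell markers to 4982 to 13148 CPM, in T cells the 8 T cell markers to 3350.4 to 4716 CPM and in NK cells the 8 NK markers to 8169 to 14857 CPM, with 0 markers of these lists at 0 in their own lineage. Monocytes and macrophages were less distinct. At 3 days the classical monocyte markers summed to 12460 CPM in macrophages and 4739 CPM in monocytes, and the C1q macrophage markers to 5156 and 2169 CPM. In the naive library the alveolar macrophage markers summed to 15458 CPM in macrophages and 1404 CPM in monocytes, and the C1q markers to 1159 and 2109 CPM. Neutrophil markers summed to 6558 CPM in monocytes and 1855 to 2237 CPM in lymphocytes at 2 h, against 1064 CPM and 245 to 716 CPM in the naive library. The 6 macrophages at 2 h were too few, and no value is given for them. Cluster 17, led by C1qa, C1qb and C1qc, took no name because the plasmacytoid dendritic list passed as well, and it entered no lineage. It held 28 naive cells, 72 at 2 h and 299 at 3 days. At 3 days its C1q markers summed to 10952 CPM and it held 294 Tnf UMIs. The macrophage values leave these cells out. The UMIs of a gene were added up within each lineage of a library and scaled to the total UMIs there, as counts per 1e+06 UMIs (CPM). With 1 library per condition there was no test. Intervals are 95% exact intervals that cover counting error only, and differences between mice or libraries cannot be told apart from differences between conditions. A gene was called when its CPM differed at least 2-fold between libraries, that is by at least 1 on the log2 scale, if the mean of the pair reached 10 CPM. The naive library was written by Cell Ranger 7.1.0 and the others by Cell Ranger 6.0.0. At 2 h against naive, genes with 100 kb or more of introns had median log2 ratios of -2.17 to -1.48 across lineages and those with under 10 kb had 0.16 to 0.32. Many of the ratios to the naive library, but not all, are given beside the median of genes of like intron length.

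Few members passed 2-fold in any lineage, and their shares are given beside those of all genes tested. Between 2 h and 3 days, 0 of 9 members were higher at 2 h in neutrophils and 1, Tnf, was lower, against 6.06% and 16% of the 5460 genes tested. In monocytes 1 member, Nfkbiz, was higher and 0 were lower, against 7.83% and 13.8% of genes. NK cells had 0 higher and 2 lower of 8 tested, namely Nfkbie and Nfkb1, against 6.57% and 13.3%. T cells had 0 in either direction, against 6.54% and 9.58%, and B cells likewise had 0, against 6.42% and 12.6%. Against the naive library at 2 h, neutrophils had Nfkbia and Tnfaip3 higher and Nfkb1 lower, against 8.82% and 24% of genes. T cells had 2 higher (Nfkbia and Tnfaip2) and 1 lower (Nfkb1), against 7.2% and 26.8%. Monocytes, NK cells and B cells each had 1 higher, Tnfaip2, and 1 lower, Nfkb1, against 8.93% and 26.7%, 8.28% and 26.5%, and 8.64% and 29.9%. Against the naive library at 3 days, neutrophils had Tnf higher and Nfkb1 lower, against 8.92% and 15.2%. Macrophages had 3 higher (Nfkbiz, Nfkbie and Tnfaip3) and 0 lower, against 11.8% and 24%, and monocytes had 0 of either, against 3.18% and 15.7%. NK, T and B cells each had Tnfaip2 higher and 0 lower, against 4.46%, 2.87% and 3.19% higher and 16.4%, 17.3% and 19.1% lower. The 3 comparisons share libraries with one another. The median log2 ratio of the members for 2 h to 3 days was 0.06 in neutrophils, where that of all genes tested was -0.30, and 0.66 in monocytes, where it was -0.24. For 2 h to naive it was -0.08 in neutrophils, against -0.28 over all genes, and for 3 days to naive it was 0.62 in macrophages, against -0.24. It lay below the median of all genes for 3 days to naive in monocytes (-0.54 against -0.02) and in neutrophils (-0.02 against 0.13). It lay above in the other combinations of lineage and comparison, apart from 2 h to 3 days in B cells (-0.34 against -0.25). The member medians in NK, T and B cells count Tnf, which was not tested there. In B cells its ratio was -0.92. Among the tested members alone the B cell median lies between the ratios of Tnfaip3 (-0.34) and Nfkbid (-0.06), so no order is given there. At 3 days 751 of the 1255 monocytes lay in the classical cluster 10, which held 1 cell at 2 h and 0 in the naive library. The monocyte medians that involve 3 days therefore compare different kinds of cell, and they were not computed without cluster 10. The macrophage counts, medians and ratios also compare different kinds, with 102 alveolar macrophages in the naive library and 640 macrophages with C1q genes at 3 days. Kind of cell and condition cannot be told apart there.

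**Figure D1:**
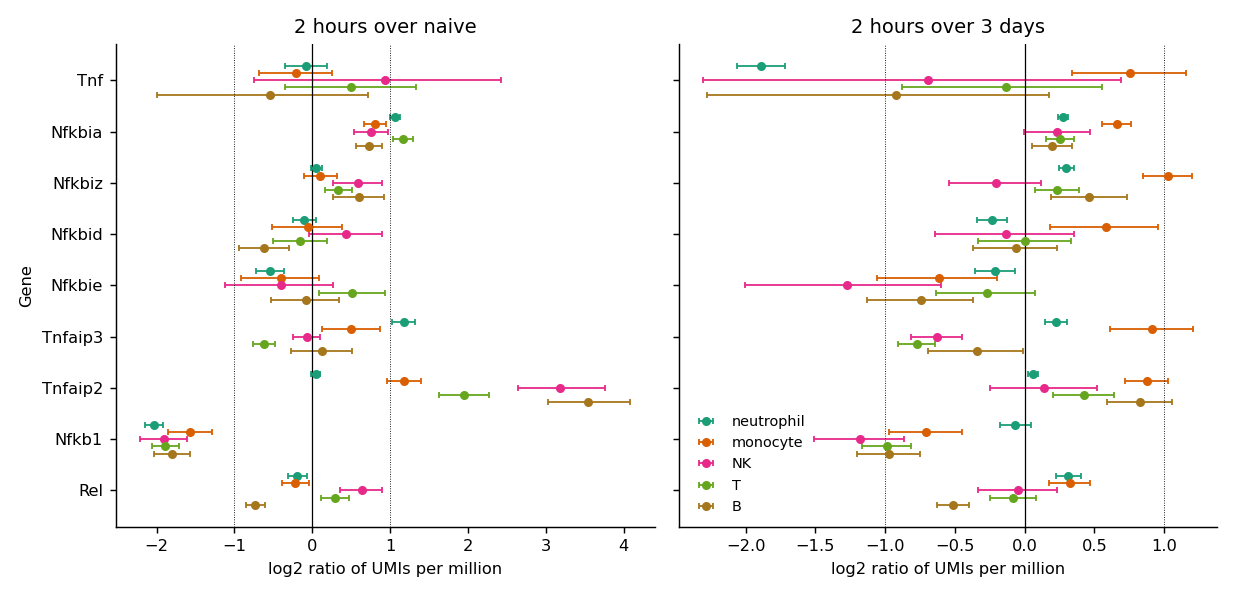
Log2 ratios of the 9 members for 2 h over naive (left) and 2 h over 3 days (right) in 5 lineages, with 95% exact intervals for counting error. Dotted lines mark 2-fold. On the left all 5 points of Nfkbia lie between 0.73 and 1.16 and all 5 of Nfkb1 between -2.04 and -1.57, and on the right Tnf in neutrophils stands at -1.89.

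Tnf (ENSMUSG00000024401; chromosome 17, 35199381 to 35202007, minus strand) was a transcript of myeloid cells in all 3 libraries, and its level in neutrophils at 3 days came mostly from 1 cluster. In neutrophils Tnf was 84.1 CPM (95% interval 72.5 to 97.0) in the naive library, 79.6 CPM (95% interval 70.9 to 89.1) at 2 h and 295 CPM (95% interval 285 to 305) at 3 days. The 2-hour and naive intervals overlap, and the 3-day level lies above both. Monocytes had 74.0 CPM in the naive library, 64.2 CPM at 2 h and 38.0 CPM at 3 days. Without the classical monocytes of cluster 10, Tnf in monocytes was 64.4 CPM at 2 h and 112 CPM at 3 days. In macrophages it was 481 CPM (95% interval 451 to 512) in the naive library and 247 CPM (95% interval 235 to 259) at 3 days, but these were alveolar macrophages in the naive library and macrophages with C1q genes, led by Arg1 and Saa3, at 3 days. NK, T and B cells had 3.04 to 9.39 CPM in any library, under the 10 CPM needed for a call, and their intervals overlap one another at 2 h and at 3 days. The log2 ratio of 2 h to 3 days was -1.89 (95% interval -2.06 to -1.72) in neutrophils and 0.76 (95% interval 0.34 to 1.15) in monocytes. The log2 ratio of 2 h to naive was -0.08 (95% interval -0.35 to 0.19) in neutrophils and -0.20 (95% interval -0.68 to 0.26) in monocytes, so neither lineage had a Tnf difference at 2 h beyond counting error. Tnf has 0.988 kb of introns, and genes with under 10 kb had medians of 0.16 and 0.17 in these lineages. For 3 days to naive the log2 ratio of Tnf was 1.81 in neutrophils, where the median of such genes was 0.51.

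**Figure D2:**
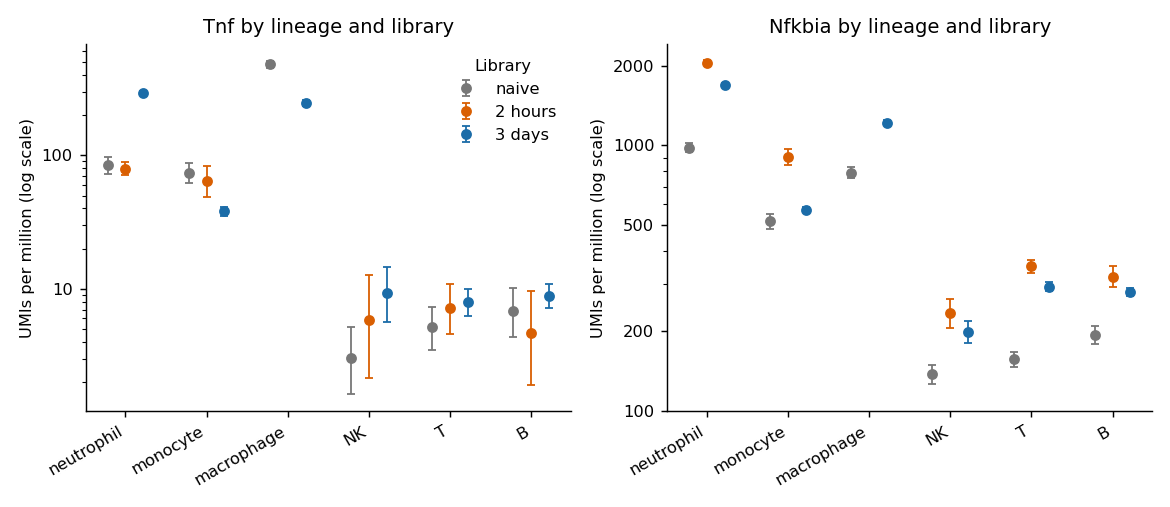
Levels of Tnf (left) and Nfkbia (right) in CPM on a log axis, for 6 lineages in the naive, 2-hour and 3-day libraries. Points are 1 library each and bars are 95% exact Poisson intervals. Tnf in neutrophils stands at 295 CPM at 3 days against 84.1 and 79.6 CPM in the other libraries, and Nfkbia is higher at 2 h than in the naive library in all 5 lineages with cells in both.

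Neutrophils at 3 days formed clusters 4 and 9, with 1648 and 755 cells. Tnf was 1079 CPM (95% interval 1040.2 to 1118) in cluster 9 and 48.6 CPM in cluster 4. Cluster 9 thus held 31.3% of the 3-day neutrophils and 87.2% of their Tnf UMIs. The genes leading cluster 9 included Il1f9, Mmp9, Csf1, Cxcr2 and S100a9. Siglecf was 129 CPM there against 14.8 CPM in cluster 4, Icam1 737 against 66.9 CPM, and Ngp, a granule gene of young neutrophils, 1.83 against 75.8 CPM. Csf3r, the receptor for G-CSF, was 2354 and 2498 CPM. The 12 neutrophil markers summed to 43979 CPM in cluster 9 and 177529 CPM in cluster 4. The macrophage markers of the C1q list summed to 215 and 281 CPM, with 0 of its 8 markers at 0 in either cluster, and the eosinophil list to 139 and 19.8 CPM with 3 and 2 markers at 0. Scrublet called 0.265% of cluster 9 cells doublets, against 3.70% in cluster 4. The 5 genes Tnf, Nfkbia, Nfkbiz, Nfkbid and Tnfaip3 were at least 2-fold higher in cluster 9 than in cluster 4, as were 15.8% of the 5881 genes tested, and 0 members were lower, as were 1.5%. Their log2 ratios were 4.47, 1.86, 1.02, 1.16 and 1.99, and the other 4 members had ratios of 0.81 to 0.98. All 9 members were higher in cluster 9 at some fold, and the share of all genes higher there at any fold was not counted. Without cluster 9, the log2 ratio of Tnf in neutrophils turned to 0.68 for 2 h to 3 days and to -0.76 for 3 days to naive.

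At 2 h the neutrophil clusters were 0, 5 and 8, with 2386, 1083 and 901 cells. Tnf was 88.9 CPM in cluster 0, 94.2 CPM in cluster 5 and 38.4 CPM in cluster 8, the cluster led by Ngp. Nfkbia was 2209 CPM in cluster 0, 2511 CPM in cluster 5 and 1070.4 CPM in cluster 8. All 9 members had their lowest 2-hour level in cluster 8, and the share of all genes lowest there was not counted. Against cluster 8, 3 members (Tnf, Nfkbia and Nfkbie) were at least 2-fold higher in cluster 0, as were 4.84% of genes, and 0 lower, as were 3.2%. In cluster 5, 3 members (Tnf, Nfkbia and Nfkb1) were higher than in cluster 8, as were 5.28% of genes, and 0 lower, as were 9.76%. Between clusters 0 and 5 the members differed by at most 1.35-fold, where 4.75% of genes were at least 2-fold higher in cluster 0 and 1.3% lower. In naive lungs 378 of the 389 neutrophils lay in a single cluster.

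**Figure D3:**
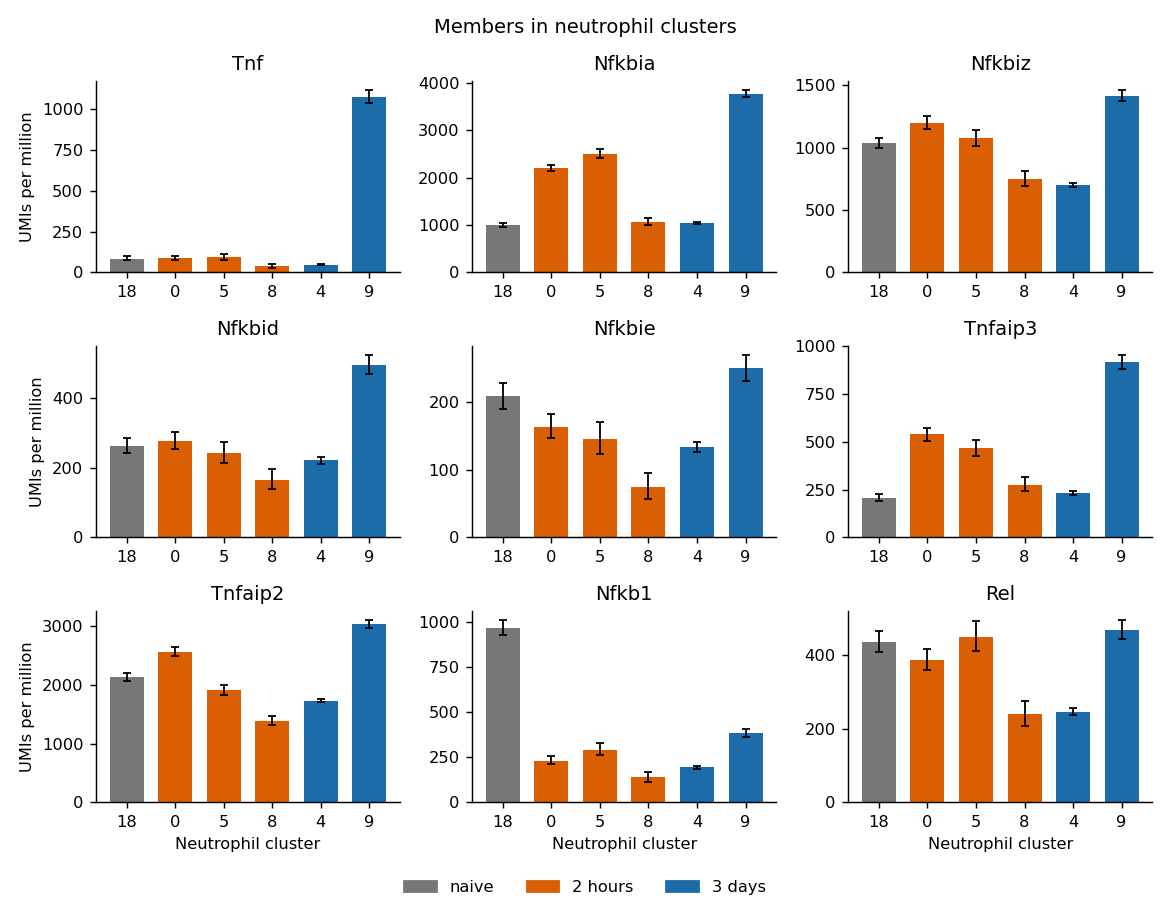
Levels of the 9 members in CPM in the neutrophil clusters of the naive library (cluster 18), the 2-hour library (clusters 0, 5 and 8) and the 3-day library (clusters 4 and 9). Bars start at 0 and whiskers are 95% exact Poisson intervals. Cluster 9 is highest for every member but Nfkb1, which is highest in the naive cluster, and for Rel its interval overlaps those of cluster 5 and the naive cluster.

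The share of cells with a Tnf UMI was compared after thinning each cell to 500 UMIs. It was 3.08% (95% interval 1.60 to 5.33) of naive neutrophils, 3.35% (95% interval 2.82 to 3.95) at 2 h and 7.38% (95% interval 6.37 to 8.5) at 3 days. Unthinned, the shares were 26.5%, 5.51% and 22.1%, at median depths of 5574, 748 and 4419 UMIs. At 3 days it was 18.7% of cluster 9 cells and 2.18% of cluster 4 cells. Macrophages had 17.6% in the naive library and 9.06% at 3 days. The share in NK, T and B cells, which is taken as the background, was 0.0631% to 0.604% after thinning. At 3 days the 10% of neutrophils with the most Tnf UMIs held 90.2% of them, and the highest cell had 128. Thinning left out 341 neutrophils of the 2-hour library and 0 of the others.

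Nfkbia (ENSMUSG00000021025; chromosome 12, 55489410 to 55492647, minus strand) was higher at 2 h than in the naive library in every lineage with enough cells. It was also higher at 2 h than at 3 days in T cells, in B cells and in neutrophils with their clusters pooled. In T and B cells the neutrophil genes S100a8, S100a9 and Retnlg summed to 3.38% and 4.03% of the neutrophil level at 2 h. At 3 days they summed to 0.828% and 0.852%. How far neutrophil RNA added to the T and B cell levels of Nfkbia was not tested. In neutrophils it was 982 CPM (95% interval 942 to 1024) in the naive library, 2049.9 CPM (95% interval 2005 to 2096) at 2 h and 1693 CPM (95% interval 1669 to 1717) at 3 days. The 3-day level pools 1037 CPM in cluster 4 with 3776 CPM in cluster 9, which lay above every neutrophil cluster of 2 h. Among the lineages neutrophils had the highest level in each library, and an unnamed cluster outside the lineages had more at 2 h and 3 days. Monocytes had 518, 906 and 574 CPM in naive, 2-hour and 3-day libraries, but without the classical cluster 10 of day 3 they had 903 CPM at 2 h and 932 CPM at 3 days. T cells had 157, 350.5 and 294 CPM, B cells 193, 321 and 280.0 CPM, and NK cells 138, 233 and 199 CPM, in the same order. Macrophages had 791 CPM in the naive library and 1219 CPM at 3 days. The log2 ratio of 2 h to naive was 1.06 (95% interval 0.99 to 1.13) in neutrophils, 0.81 (95% interval 0.67 to 0.94) in monocytes, 0.76 (95% interval 0.54 to 0.98) in NK cells, 1.16 (95% interval 1.03 to 1.29) in T cells and 0.73 (95% interval 0.56 to 0.90) in B cells. Nfkbia has 1.63 kb of introns, and the median of genes with under 10 kb was 0.16 in neutrophils, 0.17 in monocytes, 0.30 in NK cells, 0.22 in T cells and 0.32 in B cells. With the UMIs of such genes alone as the denominator, the ratio was 0.58 in neutrophils and 0.76 in T cells, below the 2-fold limit in both. Thinned to 500 UMIs, 31.9% of naive neutrophils had a Nfkbia UMI, 46.4% at 2 h and 39.4% at 3 days. In T cells the thinned shares were 5.89%, 13.3% and 13.4%.

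The inhibitor Nfkbie (ENSMUSG00000023947; chromosome 17, 45555703 to 45563169, plus strand) had its lowest neutrophil level at 2 h. That holds with the clusters pooled. At 3 days cluster 4 alone had 134 CPM (95% interval 126 to 141) and cluster 9 had 250 CPM. Pooled naive neutrophils had 204 CPM, and those of the 2-hour and 3-day libraries had 139.8 and 162 CPM. The log2 ratio of 2 h to naive in neutrophils was -0.54 (95% interval -0.73 to -0.36). Genes with under 10 kb of introns, as Nfkbie has with 4.42 kb, had a median of 0.16 there. In NK cells it was 28.1, 21.3 and 51.4 CPM, and the log2 ratio of 2 h to 3 days was -1.27 (95% interval -2.01 to -0.60), from 22 UMIs at 2 h. That ratio was -0.30 with cells thinned to 500 UMIs, and it was also below 2-fold with 10 CPM added. B cells had 45.5, 43.0 and 71.9 CPM, and T cells 19.0, 27.1 and 32.7 CPM. In macrophages it was 34.8 CPM in the naive library and 114 CPM at 3 days, a log2 ratio of 1.71 (95% interval 1.36 to 2.09) where genes with under 10 kb had a median of 0.04, and it was 0.81 after thinning.

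Nfkbiz (ENSMUSG00000035356; chromosome 16, 55811375 to 55838899, minus strand), one of the nuclear IκB genes, was highest in neutrophils in every library. It was 1033 CPM there in the naive library, 1071 CPM at 2 h and 871 CPM at 3 days. That order is among the lineages, and an unnamed cluster outside them had more Nfkbiz at 2 h and 3 days. In macrophages it was 177 CPM (95% interval 159 to 197) in the naive library and 762 CPM (95% interval 741 to 783) at 3 days, a log2 ratio of 2.10 (95% interval 1.95 to 2.26) between macrophages of different kinds. It was 0.89 with lineages called cell by cell. Nfkbiz has 22.5 kb of introns, and genes with 10 to 50 kb had a median of -0.15. In monocytes it was 307, 330.4 and 162 CPM in naive, 2-hour and 3-day libraries. In monocytes the log2 ratio of 2 h to 3 days was 1.03 (95% interval 0.85 to 1.2), and it turned to -0.33 without cluster 10. Nfkbid (ENSMUSG00000036931; chromosome 7, 30421732 to 30428746, plus strand), the other nuclear IκB gene, was also highest in neutrophils, at 262, 244 and 286 CPM. B cells came next in the naive library, with 107 CPM, and had 69.8 CPM at 2 h and 72.9 CPM at 3 days. In B cells the log2 ratio of 2 h to naive was -0.62 (95% interval -0.94 to -0.30), below 2-fold, and the median of genes with under 10 kb of introns, as Nfkbid has with 4.67 kb, was 0.32.

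Tnfaip3 (ENSMUSG00000019850; chromosome 10, 19000910 to 19015657, minus strand) ranked first in NK cells in the naive library and in neutrophils at 2 h. In NK cells it was 341 CPM (95% interval 323 to 359) in the naive library, 323 CPM (95% interval 290 to 360) at 2 h and 501 CPM (95% interval 471 to 533) at 3 days. In T cells it was 268 CPM (95% interval 255 to 282), 174 CPM (95% interval 160 to 189) and 297 CPM (95% interval 286 to 309). NK cells ranked first and T cells next in the naive library, and at 3 days the intervals of NK cells and macrophages overlapped at the top. These ranks are among the lineages, and an unnamed cluster outside them had more Tnfaip3 at 2 h and 3 days. In neutrophils it was 205 CPM (95% interval 187 to 225), 462 CPM (95% interval 441 to 485) and 395 CPM (95% interval 384 to 407), and neutrophils ranked first at 2 h. Their 3-day level pools 231 CPM in cluster 4 with 916 CPM in cluster 9. B cells had 50.6, 55.1 and 69.9 CPM and monocytes 85.2, 120.5 and 63.8 CPM in naive, 2-hour and 3-day libraries. The log2 ratio of 2 h to naive was 1.17 (95% interval 1.02 to 1.32) in neutrophils and -0.62 (95% interval -0.77 to -0.48) in T cells. It was -0.07 (95% interval -0.25 to 0.10) in NK cells and 0.12 (95% interval -0.27 to 0.51) in B cells. Tnfaip3 has 7.52 kb of introns, and genes with under 10 kb had medians of 0.16 in neutrophils, 0.22 in T cells, 0.30 in NK cells and 0.32 in B cells. With the UMIs of such genes as the denominator the ratio was 0.69 in neutrophils and -1.02 in T cells. Macrophages had 226 CPM in the naive library and 477 CPM at 3 days, a log2 ratio of 1.08 (95% interval 0.93 to 1.22) between macrophages of different kinds. It stayed past 2-fold under 7 of 13 alternatives and was 0.49 with lineages called cell by cell and no cell filter.

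Tnfaip2 (ENSMUSG00000021281; chromosome 12, 111442469 to 111455018, plus strand) had nearly the same level in neutrophils of all 3 libraries and was low in lymphocytes. Neutrophils had 2075 CPM in the naive library, 2136 CPM at 2 h and 2047 CPM at 3 days, and log2 ratios between libraries were -0.02 to 0.06. Macrophages had 1197 CPM in the naive library and 1188 CPM at 3 days. Monocytes had 185 CPM, 421 CPM and 229.6 CPM in naive, 2-hour and 3-day libraries, and the log2 ratio of 2 h to naive was 1.18 (95% interval 0.97 to 1.40). With monocytes left out that had at least 1% of their UMIs on the neutrophil genes S100a8, S100a9 and Retnlg, that ratio was 0.44. In lymphocytes the ratios were larger, from low levels. NK cells had 9.60 CPM in the naive library, 87.2 CPM at 2 h and 79.1 CPM at 3 days. B cells had 10.8, 126 and 70.8 CPM, and T cells 20.6, 79.1 and 59.0 CPM. The log2 ratio of 2 h to naive was 3.18 (95% interval 2.64 to 3.75) in NK cells, 1.94 (95% interval 1.62 to 2.27) in T cells and 3.54 (95% interval 3.03 to 4.08) in B cells. Tnfaip2 has 7.57 kb of introns, and genes with under 10 kb had medians of 0.17 in monocytes, 0.30 in NK cells, 0.22 in T cells and 0.32 in B cells.

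In lymphocytes Tnfaip2 and neutrophil transcripts were both higher at 2 h than in the naive library. As shares of the neutrophil level they lay further apart at 3 days than at 2 h in T and B cells. At 2 h Tnfaip2 in NK, T and B cells was 4.08%, 3.70% and 5.88% of the neutrophil level of the same library, and S100a8, S100a9 and Retnlg summed to 3.40%, 3.38% and 4.03%. In the naive library Tnfaip2 was 0.462%, 0.991% and 0.521%, and the neutrophil transcripts 0.310%, 0.604% and 0.187%. At 3 days Tnfaip2 was 3.86%, 2.88% and 3.46%, against 2.77%, 0.828% and 0.852%. With cells called doublets by Scrublet removed, the log2 ratio of Tnfaip2 for 2 h to naive was 1.45 in NK cells, 1.48 in T cells and 2.11 in B cells, and 8.82% of NK cells at 2 h were called doublets. With cells rich in neutrophil transcripts removed it was 2.41, 1.37 and 1.63. The other members lay well above that share at 2 h, apart from Tnf, whose wide intervals began at 2.37% in B cells and 2.68% in NK cells. Nfkbia was 11.4% of the neutrophil level in NK cells, 17.1% in T cells and 15.7% in B cells at 2 h, and Nfkbiz was 8.34% to 13.1%. What part of the lymphocyte signal came from neutrophil RNA was not tested.

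**Figure D4:**
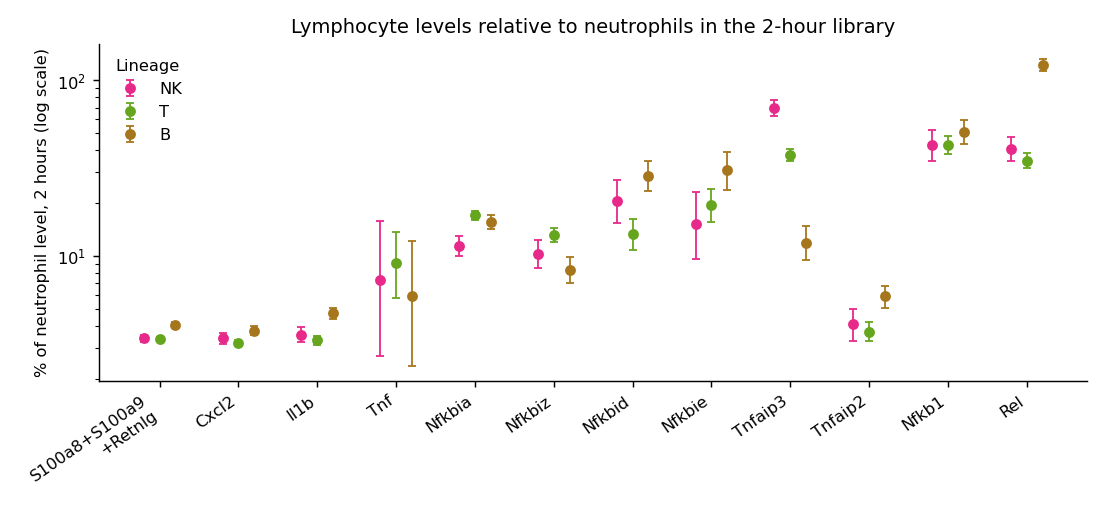
Levels in NK, T and B cells as a percentage of the neutrophil level in the 2-hour library, on a log axis, with 95% exact intervals of the lymphocyte count. The neutrophil transcripts S100a8, S100a9 and Retnlg stand at 3.38% to 4.03%, Tnfaip2 at 3.70% to 5.88% and Nfkbia at 11.4% to 17.1%, and Rel in B cells at 122% is above the neutrophil level.

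Nfkb1 (ENSMUSG00000028163; chromosome 3, 135584655 to 135691547, minus strand), which encodes p105/p50, was lower at 2 h than in the naive library in all 5 lineages. Neutrophils had 939 CPM (95% interval 899.7 to 980.3) in the naive library, 229 CPM (95% interval 214 to 245) at 2 h and 240.0 CPM (95% interval 231 to 249) at 3 days. T cells had 363, 98.3 and 195 CPM, and B cells 407, 117 and 229 CPM. The log2 ratios of 2 h to naive were -2.04 (95% interval -2.15 to -1.92) in neutrophils, -1.57 in monocytes, -1.90 in NK cells, -1.88 in T cells and -1.80 in B cells. Nfkb1 has 94.8 kb of introns, and genes with 50 to 100 kb had medians of -0.78 in neutrophils, -0.96 in monocytes, -1.11 in NK cells, -1.12 in T cells and -1.26 in B cells. Nfkb1 lies near the upper end of that range. Genes with 100 kb or more had medians of -1.48, -1.77, -2.07, -1.99 and -2.17 in the same order. Only in neutrophils was the ratio of Nfkb1 clearly below both medians. The software version differs between these libraries in the same direction as the condition, and they cannot be told apart. Between the transplant libraries, which share a version, the log2 ratio of 2 h to 3 days was -0.07 (95% interval -0.18 to 0.04) in neutrophils, -0.70 (95% interval -0.97 to -0.45) in monocytes, -1.18 (95% interval -1.51 to -0.87) in NK cells, -0.99 (95% interval -1.16 to -0.81) in T cells and -0.97 (95% interval -1.2 to -0.75) in B cells. Genes with 50 to 100 kb of introns had medians of -0.24 to -0.45 in that comparison. The NK ratio was -0.89, below 2-fold, with cells thinned to 500 UMIs.

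Rel (ENSMUSG00000020275; chromosome 11, 23736847 to 23770970, minus strand), which encodes c-Rel, was highest in B cells when whole lineages are compared. At 3 days the monocytes of cluster 16 had more, with 814 CPM (95% interval 784 to 844), as did an unnamed cluster outside the lineages, with 899 CPM. B cells had 760.0 CPM (95% interval 731 to 789) in the naive library, 458 CPM (95% interval 424 to 494) at 2 h and 654 CPM (95% interval 638 to 669) at 3 days. The intervals of B cells and monocytes overlapped at 2 h, and B cells stood apart from the next lineage in the other libraries. The log2 ratio in B cells was -0.73 (95% interval -0.85 to -0.61) for 2 h to naive and -0.51 (95% interval -0.63 to -0.40) for 2 h to 3 days, below 2-fold. Rel has 26.7 kb of introns, and genes with 10 to 50 kb had medians of -0.42 and -0.29 in these comparisons. In neutrophils Rel was 427, 374 and 301 CPM in naive, 2-hour and 3-day libraries. NK cells had 98.1, 152 and 157 CPM and T cells 106, 130.5 and 138 CPM, with the lowest level in the naive library in both.

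The monocytes of the 3 libraries fell into different clusters, and the members are given cluster by cluster. Naive monocytes lay mostly in cluster 24, with 137 cells, and those of 2 h in cluster 12, with 519 cells. At 3 days there were 751 cells in cluster 10, 433 in cluster 16 and 71 in cluster 12. Markers of classical monocytes summed to 5946 CPM in cluster 10 and those of nonclassical monocytes to 634 CPM, and in cluster 16 they summed to 628 and 4460 CPM. Clusters 24 and 12 held both kinds of marker, with 3631 CPM of classical and 2222 CPM of nonclassical markers in cluster 24, and 2198 and 1274 CPM in cluster 12 at 2 h. They are therefore called by number.

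Tnf was 76.2 CPM (95% interval 63.8 to 90.3) in cluster 24 of the naive library and 64.5 CPM (95% interval 48.7 to 83.7) in cluster 12 at 2 h. At 3 days it was 125 CPM (95% interval 98.2 to 157) in cluster 12, 109 CPM (95% interval 98.6 to 121) in cluster 16 and 14.4 CPM (95% interval 12.4 to 16.6) in cluster 10. Within cluster 12 the 3-day level of Tnf, from 75 UMIs in 71 cells, lay above that of 2 h, and these intervals did not overlap. The shares of its cells with a Tnf UMI after thinning had overlapping intervals, so no order is given for the shares. They were 3.11% (95% interval 1.79 to 5.00) at 2 h and 7.04% (95% interval 2.33 to 15.7) at 3 days. Nfkbia was 904 CPM at 2 h and 884 CPM at 3 days in cluster 12, with overlapping intervals, and 941 CPM in cluster 16, 459 CPM in cluster 10 and 515 CPM in cluster 24. Nfkbiz was 330.5 and 416 CPM in cluster 12 at 2 h and 3 days, 415 CPM in cluster 16, 81.2 CPM in cluster 10 and 294 CPM in cluster 24. Tnfaip2 went the other way in cluster 12, with 423 CPM (95% interval 380.5 to 468) at 2 h and 188 CPM (95% interval 155 to 226) at 3 days. The neutrophil markers in cluster 12 also differed, with 6580 CPM at 2 h and 671 CPM at 3 days. What part of its Tnfaip2 came from neutrophil RNA was not tested.

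Of the 9 members, 6 were at least 2-fold higher in cluster 16 than in cluster 10 at 3 days (Tnf, Nfkbia, Nfkbiz, Nfkbid, Tnfaip3 and Rel), as were 10.7% of the 7367 genes tested, and 0 were lower, as were 6.68%. Nfkbie was 82.7 and 84.4 CPM there, a log2 ratio of -0.03 (95% interval -0.22 to 0.16).

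**Figure D5:**
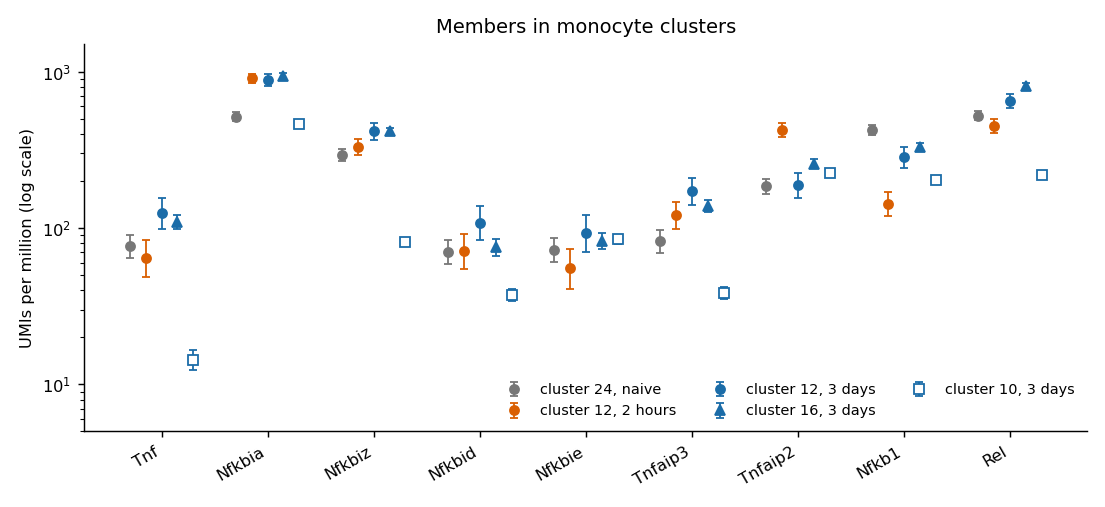
Levels of the 9 members in UMIs per 1e+06 UMIs, on a log axis, in the monocyte clusters of the naive library (24), the 2-hour library (12) and the 3-day library (12, 16 and 10), with 95% exact Poisson intervals. At 3 days Tnf stands at 125 and 109 CPM in clusters 12 and 16 and at 14.4 CPM in cluster 10, and Nfkbie differs little among the 3-day clusters.

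The 40 other genes of the pathway list, which holds receptors, adaptors, kinases, subunits, inhibitors and induced targets, were counted in the same way. In neutrophils 36 were tested. For 2 h to 3 days 7 were higher (Bcl3, Zfp36, Zc3h12a, Ier3, Cxcl2, Ccl4 and Nlrp3) and 0 lower, against the 6.06% and 16% of all genes. For 2 h to naive 8 were higher and 3 lower, against 8.82% and 24% of all genes, and 6 of the 8 were among the 13 induced targets. Cxcl2, a chemokine for neutrophils, was 2215 CPM in naive neutrophils, 19909 CPM at 2 h and 4782 CPM at 3 days. Ccl4 was 115, 1295 and 509.6 CPM, and Ier3 471, 2206 and 585 CPM. Zfp36, which encodes an RNA-binding protein that speeds the decay of Tnf mRNA, was 469, 1989 and 893 CPM, highest at 2 h. Il1b, the precursor of IL-1β, was 6892, 11053 and 8431 CPM. Tnfrsf1b, the TNF receptor found mainly on leukocytes, was 824, 492 and 590.1 CPM, below 2-fold.

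In monocytes 39 pathway genes were tested. For 2 h to 3 days 10 were higher and 1, Adam17, which encodes the protease that sheds TNF, was lower, against 7.83% and 13.8% of all genes. Cxcl2 was 4119 CPM at 2 h, 344 CPM at 3 days and 128 CPM in the naive library. The neutrophil markers in monocytes summed to 6558, 2044 and 1064 CPM in the same order. At 3 days Cxcl2 was 1215 CPM in cluster 12, 603 CPM in cluster 16 and 232 CPM in the classical cluster 10. What part of the monocyte Cxcl2 came from neutrophil RNA was not tested. In macrophages 12 of 40 were higher at 3 days than in the naive library and 0 lower, against 11.8% and 24% of all genes, and 9 of the 12 were among the induced targets. The naive cells were alveolar macrophages and the 3-day cells macrophages with C1q genes, so kind of cell and condition cannot be told apart. Ptgs2 was 1164 CPM at 3 days and 0.504 CPM in the naive library, from 1 UMI. Il1b was 139.6 and 3447 CPM, and Tnfrsf1b 281 and 559 CPM, in naive and 3-day macrophages.

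In lymphocytes 37 or 38 pathway genes were tested for 2 h to naive, and 8 were higher and 3 lower in NK cells, 10 higher and 5 lower in T cells and 10 higher and 4 lower in B cells. Over all genes 8.28%, 7.2% and 8.64% were higher and 26.5%, 26.8% and 29.9% lower. Cxcl2 and Il1b were among the higher genes in each lineage. Cxcl2 was 677 CPM in NK cells, 634 CPM in T cells and 746 CPM in B cells at 2 h, and 9.36, 19.2 and 13.9 CPM in the naive library. At 2 h that was 3.40%, 3.19% and 3.75% of the neutrophil level, and Il1b was 3.57%, 3.30% and 4.72%, beside the 3.38% to 4.03% of the neutrophil transcripts. Zfp36 was 11.2%, 18.1% and 26.2% of the neutrophil level. T cells had 89.5 CPM of Zfp36 in naive lungs, 360.2 CPM at 2 h and 173 CPM at 3 days, and in B cells 158, 520.4 and 219.7 CPM.

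Across the 17 combinations of lineage and library, the genes whose levels followed those of Tnf most closely were Tlr2, Clec4n, Nampt, Slc6a6 and Rab32, with Pearson correlations of 0.958, 0.956, 0.956, 0.953 and 0.941 on log2 values among 4230 candidates. For Nfkbia they were Mcl1, Nlrp3, Myd88, Fpr2 and the member Tnfaip2, with 0.978, 0.965, 0.959, 0.958 and 0.957. These are descriptions over points that share libraries, and the myeloid lineages lie at the high end of each.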

How the data were processed

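Single-cell RNA-Seq was analysed for 3 mouse lung libraries, 1 per group, with 2 mice pooled in each. The deposited values were UMI counts per gene and cell, which the authors made with Cell Ranger against mm10. The labels name version 6, and the deposited file headers name 6.0.0 for both transplants but 7.1.0 for the naive lungs. No source used here says if reads in introns were counted, and the labels and the methods name different capture kits, so that the chemistry is not settled. The 277 antibody features of each transplant library were not used.

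Barcodes passed with over 200 but below 6000 genes, less than 10% of UMIs from mitochondria and a total below 25000. They were normalized with SCTransform 0.4.2 in Seurat 5.3.0 (R 4.3.3), without integration, and clustered by Louvain at resolution 0.8 on 30 principal components. The 32 members and pathway genes among the 3000 variable features were left out. A cluster was named when the median log2 ratio of a marker list passed 1, with at least 3 of its markers past 1 and no second list doing so, against cells of clusters whose closest list was another one. This reference was set after a comparison with all other cells had left clusters with neutrophil genes unnamed. Scrublet (scanpy 1.11.5) called 40, 403 and 276 doublets in the naive, 2-hour and 3-day libraries, which stayed in except in an alternative. A lineage needed 50 cells in a library.

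UMIs were summed per lineage and library, and levels are given per 1e+06 UMIs (CPM). Libraries held 28538529, 10749100 and 70750470 gene UMIs in the naive, 2-hour and 3-day groups before filtering. Counting error depends on the UMIs of a lineage, which were fewest at 2 h in monocytes, NK, T and B cells. Neutrophils held fewest in the naive library, with 2247384 against 3805631 at 2 h. With 1 library per group no test was made. Intervals were exact at 95% (Poisson for levels, Clopper-Pearson for ratios and shares) and cover counting error only. On simulated counts for 2 h against 3 days in neutrophils, with 200 of 4210 genes changed by a log2 ratio of 2, 100% of the changed genes and 0% of the others were called. The simulation held counting error alone, with a change well past the 2-fold limit. It checks the calling step and cannot measure errors from differences between mice, libraries or cell mixtures.

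The members, marker lists and pathway list were chosen with earlier results of these data known. All 9 members are given, and of the pathway list the genes with the largest ratios (at most 3 each way per lineage) and Il1b, Cxcl2, Zfp36 and Tnfrsf1b. Siglecf, Icam1, Csf3r and Ngp were chosen after their cluster values were seen. The genes most like Tnf and Nfkbia were ranked by Pearson correlation of log2(CPM + 10). A limit of 1.5-fold was applied to the counts only. Of 15 alternative settings for the ratios, 4 were added after seeing the data: cluster naming against all other cells, monocytes without the classical cluster 10, 3-day neutrophils without cluster 9, and a denominator of genes with under 10 kb of introns. Intron lengths came from GENCODE vM21, which held 32158 of the 32285 gene identifiers.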

Additional observations from a re-analysis of the deposited data

Results flagged for a closer look

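Members whose ratios lay on opposite sides in different lineages are given here as values, and the difference between the lineages was not tested. For 2 h to 3 days the log2 ratio of Tnf was 0.76 in monocytes and -1.89 in neutrophils. For 3 days to naive it was 1.81 in neutrophils and -0.96 in monocytes. For 2 h to naive the log2 ratio of Tnfaip3 was 1.17 in neutrophils and -0.62 in T cells. For 3 days to naive the log2 ratio of Nfkbiz was 2.10 in macrophages and -0.92 in monocytes. The neutrophil values of Tnf rest on cluster 9, and the monocyte and macrophage values compare cells of different kinds. These kinds differ between 3 days and the naive library, and in monocytes also between 3 days and 2 h. Leaving out the classical cluster 10 turned the direction of each monocyte ratio listed here. Monocyte Tnf then stood at 64.4 CPM for 2 h and 112 CPM for 3 days, beside 74.0 CPM for naive monocytes. Monocyte Nfkbiz then stood at 415 CPM for 3 days, beside 307 CPM for naive monocytes.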

How the results depend on the processing

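Of the 24 member ratios past 2-fold, 21 kept their direction under all 13 or 14 alternatives that gave a value, and 12 stayed past 2-fold in all of them. All of these 12 are ratios to the naive library, which was written by another software version. They belong to Nfkb1 in neutrophils, monocytes, NK, T and B cells, and to Tnfaip2 in NK, T and B cells. What part of the lymphocyte Tnfaip2 came from neutrophil RNA was not tested. Nfkbie in NK cells for 2 h to 3 days was lost with thinning and with 10 CPM added, and Tnfaip3 in macrophages for 3 days to naive stayed past 2-fold in 7 of 13. Those that turned were Tnf in neutrophils and Nfkbiz in monocytes. For Tnf in neutrophils the log2 ratio of 2 h to 3 days was 0.60 with clusters named against all other cells, which left cluster 9 out, and 0.68 without cluster 9. That of 3 days to naive was -0.79 and -0.76 under these settings. For Nfkbiz in monocytes the log2 ratio of 2 h to 3 days was -0.33 without cluster 10. The count of members higher at 2 h than at 3 days in monocytes, 1 in the report, was 2 with lineages called cell by cell, with or without the cell filter, 4 at resolution 1.2 and 5 at 1.5-fold. It was 0 with the members kept for clustering, with cells rich in neutrophil transcripts removed, with the mean over cells, with thinning to 500 UMIs, without ribosomal, mitochondrial and immunoglobulin UMIs, with 10 CPM added, without cluster 10, and with genes under 10 kb of introns as the denominator. The count higher at 2 h than in naive monocytes, also 1, was 3 with cell-by-cell lineages under either filter and with thinning, 2 at 1.5-fold, and 0 with the members kept, with neutrophil-rich cells removed and with the intron denominator. In B cells the count for 2 h over 3 days went from 0 to 1, and for 2 h over naive from 1 to 3, with cell-by-cell lineages and at 1.5-fold, and resolution 1.2 gave 1 for the former. In neutrophils the 2 members higher at 2 h than in naive became 1 with cell-by-cell lineages, the mean over cells, thinning or naming against all other cells, and 0 with the intron denominator. NK cells had 4 at 1.5-fold, and T cells 1 in place of 2 with the intron denominator. The cause of these changes was not tested. The lower fold admits more members, and several settings leave cells out. Thinning and the intron denominator moved the most ratios beyond their intervals, 88 of 144 each. Naming against all other cells gave no monocyte value at 2 h. No paired analysis was possible because each group is 1 library. Depth limits Tnf in lymphocytes, with 3.04 to 9.39 CPM, and the 6 macrophages at 2 h.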

Other observations

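The members were also read in a cluster that took no name and entered no lineage, with 68 cells at 2 h and 112 at 3 days, whose leading genes included Cyp11a1, Gata2 and Mcpt8. Nfkbia was 2827 CPM (95% interval 2489 to 3199) at 2 h and 2421 CPM (95% interval 2307 to 2540.1) at 3 days in this cluster. Tnfaip3 was 1683 and 1556 CPM, Nfkbiz 1806 and 1592 CPM, and Nfkb1 1245 and 1732 CPM. Rel was 718 and 899 CPM. The levels of Nfkbia, Nfkbiz, Tnfaip3, Nfkb1 and Rel lay above those of each lineage with a value in the same libraries. Tnf was 56.1 CPM at 2 h, from 5 UMIs, and 15.9 CPM at 3 days, from 11 UMIs.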
